A study of Mus musculus with 30 samples.

Results

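The transforming growth factor beta (TGF-beta) pathway of microglia was followed through 10 genes chosen by symbol, with no rule on measured values. They were the ligand gene *Tgfb1*, the activation gene *Nrros*, the receptor genes *Tgfbr1* and *Tgfbr2*, the signal transducers *Smad2* and *Smad3*, the inhibitors *Smad7*, *Ski* and *Tgif1*, and the response gene *Tgfbi*. All 10 had a row in the table, and they accounted for 14 of its 14225 transcripts, or 10 of its 13483 gene symbols. *Tgif1* had 5 transcripts and each other gene had 1. Earlier results of these data were known when the genes were chosen.

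TGF-beta1 is secreted in a latent complex, and in the brain the microglial surface protein NRROS holds that complex and allows its activation. The active ligand joins the type II receptor TGFBR2 to the type I receptor TGFBR1, which phosphorylates SMAD2 and SMAD3 so that they enter the nucleus and act on genes that carry short SMAD-binding motifs. Microglia depend on this signal to take on and keep the homeostatic state marked by genes such as *P2ry12*, *Tmem119* and *Sall1*.

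RNA of CD11B bead-isolated cells from whole brain of C57BL/6J mice was measured in 30 libraries, 3 in each of 10 groups. The offspring came from mothers injected at E9.5 with saline (Saline) or with poly(I:C), a mimic of viral RNA that induces maternal immune activation (MIA). Saline and MIA offspring were sampled at E17, P7 and P20, and at P60 after control chow (Saline + CTRL, MIA + CTRL) or after chow with the CSF1R inhibitor PLX5622 from P21 to P42, which depletes microglia, followed by a period without it, in which microglia repopulate the brain (Saline + MG-REP, MIA + MG-REP). By the study's methods a library held the brains of 1 litter at E17, 3 pooled brains at P7 and 1 brain at P20 and P60. Beads that bind CD11B also take other myeloid cells, and in bulk RNA fewer cells of a type and less RNA per cell cannot be told apart.

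Levels were given as TPM, which scales reads to the length of the transcript and the total of the library, and the libraries summed to between 995495 and 998012. The steps between low values put the worth of a single read at 0.211 to 0.354 TPM for a transcript of 1 kb, and 66.2% to 74.1% of low values lay within 0.2 of a whole read, so read numbers are estimates. The 5 microglia markers summed to between 14960 and 42940 TPM. Several libraries carried other signals that touch results given further on. Saline + MG-REP library 2 had the highest sum of the monocyte and neutrophil list at P60, 4621 TPM against 85.7 to 809 in the other P60 libraries. The border macrophage list summed to 1320, 687 and 689 TPM in Saline + MG-REP libraries 1 to 3, against 412 to 568 in CTRL libraries and 267 to 398 in MIA + MG-REP libraries. In the Saline + MG-REP sums *Pf4* alone made up 901, 422 and 408 TPM. All 6 MG-REP and all 6 P20 libraries had *Xist* and at most 0.62 TPM of summed Y-linked transcripts, whereas in Saline + CTRL and in MIA + CTRL libraries 2 and 3 the Y-linked transcripts summed to 268.5 to 318 TPM, with *Xist* at 0.29 TPM or less. These 4 are called the male P60 libraries. Without them, library 1 is the only library left in each CTRL group. The E17 libraries all held *Xist* together with 180 to 258.5 TPM of Y-linked transcripts. So did the P7 libraries, at 125 to 285.5 TPM, except P7 MIA library 2 at 0.1 TPM. The step from P7 to P20 therefore also goes from mostly mixed libraries to libraries with *Xist* alone.

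The members covered a wide range of levels, and because TPM is per length they can be ordered. Over the 30 libraries the mean level was 508 TPM ± 67.1 (SD) for *Tgfb1*, 364 ± 78.8 for *Ski*, 236 ± 68.8 for *Nrros* and 224 ± 315 for *Tgfbi*. It was 171 TPM ± 89.7 for *Smad7* and 106 ± 25 for *Smad3*. The *Tgfbi* mean includes 3 Saline + MG-REP libraries at 643 to 1704 TPM, and its median was 130 TPM, below the 166 TPM of *Smad7*. Of the *Tgif1* rows 4 followed, at 66.1 TPM ± 18.2 for NM_009372, 23.9 ± 8.36 for NM_001164077, 18.9 ± 6.03 for NM_001164075 and 16.6 ± 6.24 for NM_001164076. The lowest rows were at 2.59 TPM ± 0.704 for *Tgfbr2*, 2.25 ± 1.55 for *Tgfbr1*, 1.77 ± 1.29 for *Tgif1* NM_001164074 and 1.34 ± 0.316 for *Smad2*. Neighbours in this order mostly lay within their spread of each other. The low rows of the receptors and *Smad2* hold 1 transcript of genes with 2 or 3 RefSeq transcripts, and *Tgfb1*, *Smad3* and *Smad7* have 1 each. *Ski* and *Tgfbi* with 2 and *Nrros* with 3 also have 1 row each and stood at 364, 224 and 236 TPM. Over the whole table the median level of a row was 25.5 TPM for genes with 1 RefSeq transcript, 7.96 TPM with 2 and 5.88 TPM with 3, so these rows need not give the level of the gene. Estimated reads per library ran from 2580 to 5660 for *Tgfb1* and from 25.8 to 70.5 for *Smad2*.

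**Figure D1:**
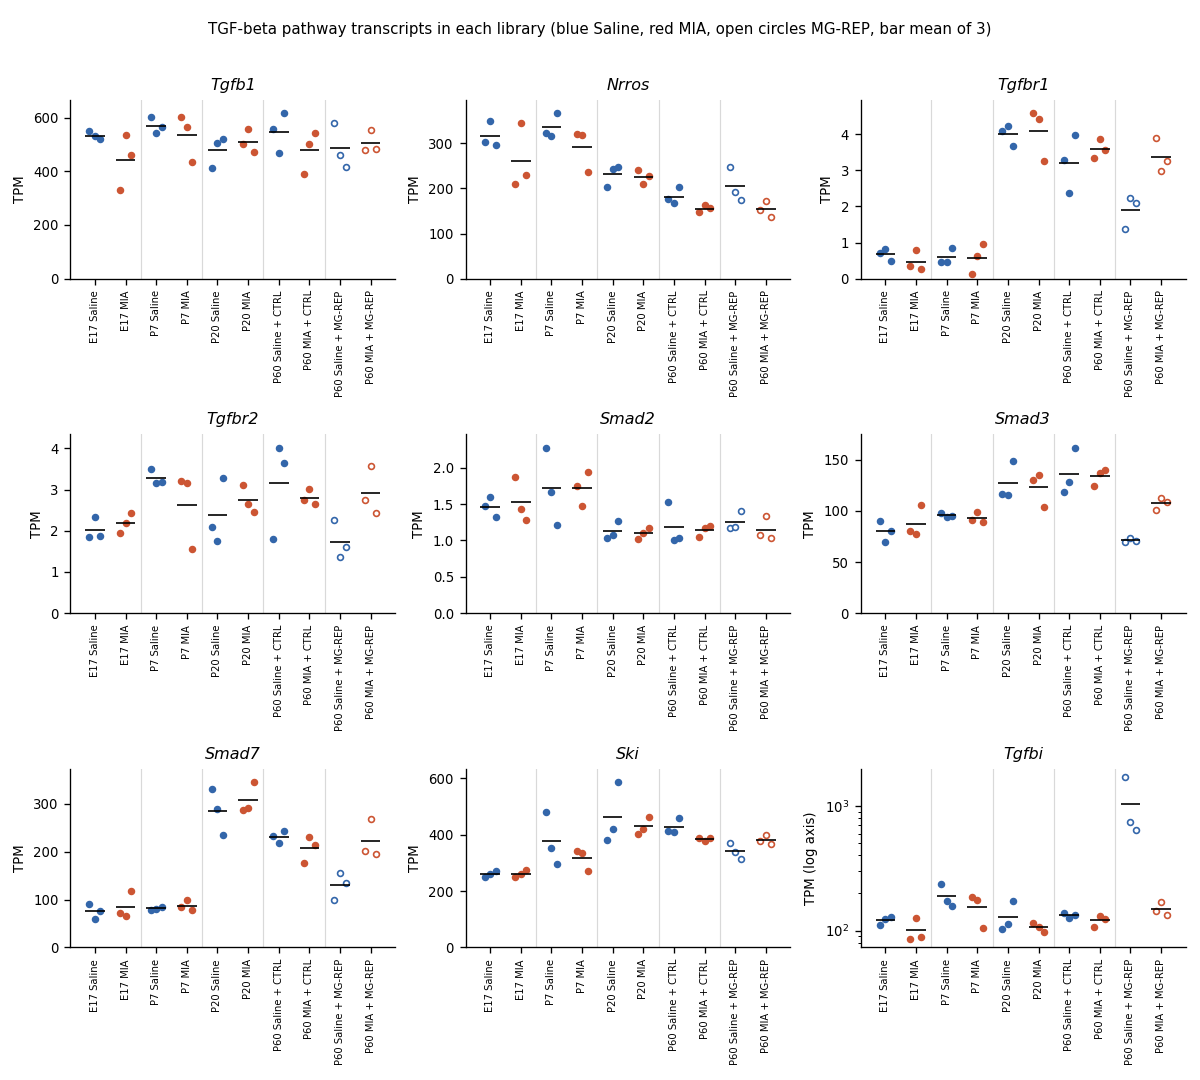
TPM of 9 members in each of the 30 libraries, with the 10 groups along the horizontal axis, a point for each library and a bar at the mean of 3; the *Tgfbi* panel has a log axis and the others start at 0. *Smad7* and *Tgfbr1* stepped up between P7 and P20, and the Saline + MG-REP libraries stood apart from the other P60 groups for *Tgfbi*, *Smad3* and *Smad7*.

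The first question was how the members change as microglia mature, with Saline and MIA offspring pooled, 6 libraries an age. *Tgfb1*, the ligand gene, was level from embryo to adult: its lowest, median and highest values were 332, 525 and 549 TPM at E17, 436, 564 and 602 TPM at P7, 413, 503 and 559 TPM at P20, and 391, 522 and 616 TPM in P60 CTRL libraries. The ages overlapped at every step. No step passed the test, and the difference between P60 CTRL and E17 was 0.08 on the log2 scale (SE 0.11, adjusted p = 0.563).

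*Nrros*, which encodes the protein that anchors latent TGF-beta1 on microglia, declined after P7. Its lowest, median and highest values were 236, 320 and 367 TPM at P7, 203, 235 and 248 TPM at P20, and 147, 165 and 203 TPM in P60 CTRL libraries. P7 and P20 overlapped in part, and P60 CTRL touched the lowest P20 library. It fell by 0.45 on the log2 scale from P7 to P20 (SE 0.11, adjusted p = 0.00176) and by 0.44 from P20 to P60 CTRL (SE 0.11, adjusted p = 0.0112), and the P60 CTRL and E17 libraries did not overlap. With a scaling by median ratios neither step passed (adjusted p = 0.0505 and 0.102). With *Xist* as a covariate the log2 change of the later step was -0.49 and did not pass (adjusted p = 0.125). Without the male P60 libraries that change was -0.50.

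The type I receptor gene *Tgfbr1* was measured through a single short transcript, NM_001312869, which the annotation starts at chromosome 4 position 47386216 (GRCm38, plus strand), inside the gene at 47353222 to 47414926. Of its 1713 exonic bases, 274 lie in neither of the other 2 RefSeq transcripts of the gene, which had no row and were not analysed here. Its own start region, from 250 bases before the start to 50 after it, is shown because the row is annotated to begin there (chr4:47385966-47386265, plus strand, RefSeq on GRCm38.p6), with the SMAD-binding letters CAGAC or their reverse complement GTCTG in capitals.
Tgfbr1 downstream start: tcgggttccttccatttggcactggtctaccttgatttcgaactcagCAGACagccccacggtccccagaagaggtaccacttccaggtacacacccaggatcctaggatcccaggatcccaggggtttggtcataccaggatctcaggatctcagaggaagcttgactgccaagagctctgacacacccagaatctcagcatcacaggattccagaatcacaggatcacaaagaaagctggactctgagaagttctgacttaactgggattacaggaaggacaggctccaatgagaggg
The single match began 203 bases before the start, and the main upstream promoter held none. Of all 32851 promoters of this length, 49.6% held at least 1 match, so its presence marks nothing out. Whether the reads of the row came from this start or from the longer transcripts was not tested.

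*Tgfbr1* had its jump between P7 and P20. It ranged from 0.27 to 0.82 TPM at E17 and from 0.14 to 0.95 TPM at P7, about 0.937 to 6.41 reads a library. At P20 the lowest, median and highest values were 3.25, 4.17 and 4.58 TPM, and in P60 CTRL libraries 2.36, 3.45 and 3.99 TPM. Every P20 library lay above every P7 library. The ratio of means was 6.91, and the log2 fold change of TPM + 1, which understates changes of low transcripts, was 1.69 (SE 0.14, adjusted p = 7.05e-10). It was 1.66 in Saline and 1.72 in MIA offspring. *Tgfbr2*, the ligand-binding receptor gene, did not pass at any step, with ranges of 1.85 to 2.42 TPM at E17 and 1.80 to 4.02 TPM in P60 CTRL libraries.

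*Smad7*, the inhibitory SMAD that pathway activity itself induces, rose at the same step. Its lowest, median and highest values were 59.3, 74.3 and 117 TPM at E17, 78.1, 82.5 and 99.1 TPM at P7, 235, 291 and 346 TPM at P20, and 177, 224 and 243 TPM in P60 CTRL libraries. The P7 and P20 libraries were far apart. The ratio of means was 3.52 and the rise on the log2 scale 1.80 (SE 0.14, adjusted p = 1.71e-10), with 1.78 in Saline and 1.81 in MIA offspring. The step down to P60 CTRL, 0.43 on the log2 scale (SE 0.14, adjusted p = 0.0402), was lost under 14 of 21 alternatives, with adjusted p from 0.0194 to 0.182 over them. Its log2 change was -0.52 with *Xist* as a covariate and -0.54 without the male P60 libraries.

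The signal transducers moved apart. *Smad3* rose from a median of 94.7 TPM at P7 (89.3 to 98.6) to 123.5 TPM at P20 (104 to 149) and was 133 TPM in P60 CTRL libraries (118 to 162). P7 and P20 did not overlap, and the rise on the log2 scale was 0.39 (SE 0.09, adjusted p = 9.84e-04). *Smad2*, a low row, fell from a median of 1.71 TPM (1.21 to 2.28) to 1.09 TPM (1.02 to 1.27), a log2 change of -0.36 (SE 0.10, adjusted p = 0.00428), with overlap at the edge.

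Among the nuclear inhibitors, *Ski*, a corepressor that binds SMAD3, rose in both early steps. Its median was 260 TPM at E17 (248 to 275), 339 TPM at P7 (273 to 481), 421 TPM at P20 (380 to 587) and 400 TPM in P60 CTRL libraries (377 to 459). P60 CTRL and E17 did not overlap, and their log2 fold change was 0.64 (SE 0.10, adjusted p = 6.63e-06). The early step of 0.39 was lost with a scaling by median ratios (adjusted p = 0.0737) and in a fit of only the groups compared (adjusted p = 0.0603).

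*Tgif1*, a homeodomain corepressor, was split over 5 rows that did not share 1 course. NM_009372 was the most abundant, with a mean of 57.1 TPM ± 14.4 (SD, n = 6) at E17, 77.8 ± 14.4 at P7, 77.4 ± 22.0 at P20 and 51.5 ± 7.89 in P60 CTRL libraries. NM_001164077 rose at both early steps, from 13.2 TPM ± 2.99 at E17 to 22.4 ± 3.83 at P7 and 35.2 ± 6.12 at P20, with log2 fold changes of 0.74 (SE 0.13, adjusted p = 6.02e-04) and 0.63 (SE 0.13, adjusted p = 3.28e-04). NM_001164076 took the same course, from 9.43 to 15.1 to 24.5 TPM. NM_001164075 and NM_009372 passed at neither early step, nor did NM_001164074, at 1.03 to 35.1 reads a library. A difference in course between transcripts was not tested. All 5 fell from P20 to P60 CTRL, by 0.55 to 0.95 on the log2 scale. None of the 5 falls passed with *Xist* as a covariate, where the log2 changes were -0.53 to -0.90. Without the male P60 libraries they were -0.57 to -0.88. How reads shared by the 5 rows were divided among them is not given in the sources used here, so the level of each row is uncertain.

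**Figure D2:**
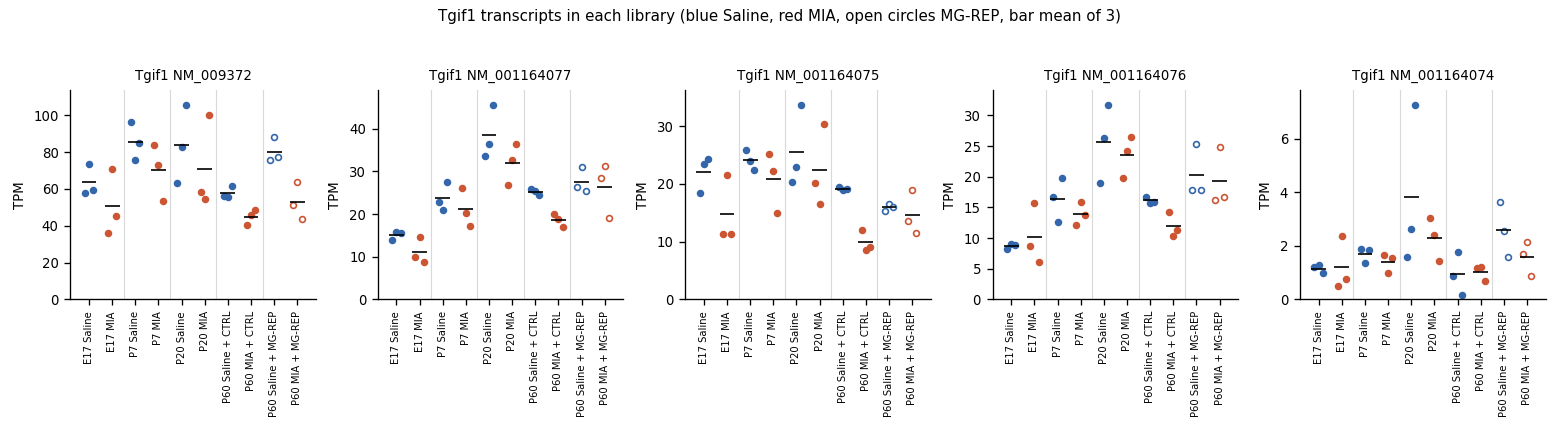
TPM of the 5 *Tgif1* transcripts in each of the 30 libraries, with the 10 groups along the horizontal axis, a point for each library and a bar at the mean of 3. NM_001164077 and NM_001164076 climbed from E17 to P20, and all 5 were lower in P60 CTRL libraries than at P20.

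*Tgfbi*, an extracellular matrix gene named for its induction by TGF-beta, had a small peak at P7. Its median was 118 TPM at E17 (85.2 to 129), 174 TPM at P7 (104 to 238), 109.9 TPM at P20 (97.6 to 172) and 129.7 TPM in P60 CTRL libraries (108 to 139). The ages overlapped throughout. The rise of 0.61 (SE 0.19, adjusted p = 0.036) was lost under 10 of 20 alternatives, and the fall of 0.53 (SE 0.19, adjusted p = 0.021) under 6 of 20.

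Counted over all rows, 4 of the 14 member transcripts rose from E17 to P7 and none fell, where limma called 10.8% of all transcripts and 6.76% were called higher. From P7 to P20, 9 of 14 passed, beside 50.7% of all. Of these 6 rose, beside 21.6%, and 3 fell, beside 29.1%. With *Xist* as a covariate no member changed its call at this step, and 7151 of all transcripts were called, against 7216 without it. From P20 to P60 CTRL, 7 fell and none rose, beside 12% of all called and 7.71% called lower. The 7 stand for 3 genes, since 5 are *Tgif1* rows that share exons. Of all calls at that step 35.5% were higher, or 49.4% with a scaling by median ratios. Between E17 and P60 CTRL, 7 of 14 passed, beside 61.7% of all. Of these 6 rose, beside 27.5%, and *Nrros* fell, beside 34.2%. The count at P60 was 0 with *Xist* as a covariate, where the 7 log2 changes ran from -0.49 to -0.90. Without the male P60 libraries, a kind that P20 does not hold, these changes ran from -0.50 to -0.88. The count from E17 to P7 was 1 in a fit of only those groups and 2 with a scaling by median ratios.

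**Figure D3:**
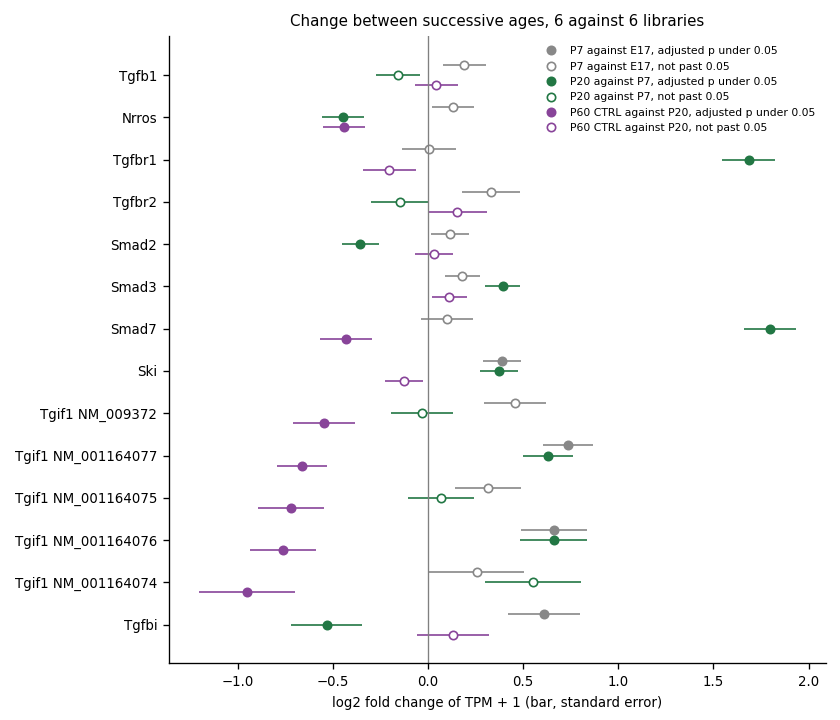
Log2 fold change of TPM + 1 for the 14 member transcripts between successive ages, with standard errors; filled points have an adjusted p under 0.05. *Tgfbr1* (1.69) and *Smad7* (1.80) at the step from P7 to P20 lie well to the right of the rest, and the falls at P60 include all 5 *Tgif1* rows.

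The level of other cells also moved between ages. The 4 oligodendrocyte markers summed to 955 to 2619 TPM at P20 against 122 to 240 TPM at P7 and 273 to 1001 TPM in P60 CTRL libraries, and the 6 mural and fibroblast markers to 337 to 790 TPM at P20 against 881 to 1610 TPM at P7. The border macrophage markers summed to 519 to 1271 TPM at E17, 1029 to 2068 TPM at P7, 626 to 890 TPM at P20 and 412 to 568 TPM in P60 CTRL libraries, so that they too were highest at P7, as *Tgfbi* was. P7 MIA library 3 had the lowest value of that age for both, 1029 TPM for the list and 104 TPM for *Tgfbi*. That library was also the lowest at P7 for the microglia markers, at 17570 TPM, and the highest for the endothelial markers, at 2201 TPM. The microglia markers summed to 29440 to 40230 TPM at P20 against 17570 to 25790 TPM at P7, with 4 of 5 risen. Their part in the members' changes was not tested.

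The second question was whether MIA offspring differ from Saline offspring at the same age. No member passed at E17, P7, P20 or P60, where limma called 0.0% of all transcripts at each age. At an unadjusted p under 0.05 there were 2 member transcripts at E17, 0 at P7, 0 at P20 and 2 at P60, beside 4.11%, 2.36%, 3.21% and 1.8% of all transcripts. The P60 pair was *Tgif1* NM_001164075 and NM_001164077. NM_001164075 had 19.4, 18.9 and 19.1 TPM in Saline + CTRL and 12.04, 8.56 and 9.10 TPM in MIA + CTRL libraries, so the groups did not overlap. Its log2 difference was -0.90 (SE 0.24, unadjusted p = 0.00122, adjusted p = 1.00). The same row was lower in MIA offspring at E17 too, with means of 14.7 and 22.1 TPM (log2 difference -0.60, SE 0.24, unadjusted p = 0.0215, adjusted p = 0.754), with overlap. The microglia markers summed to 14960, 25410 and 18290 TPM in E17 MIA against 20810 to 26180 TPM in E17 Saline libraries. The neuron markers summed to 863, 131 and 117 TPM against 106 to 223 TPM, and the choroid plexus markers to 3547, 1345 and 12240 TPM against 1409 to 3083 TPM. Their part in the E17 difference was not tested. In all, 6 of 14 member transcripts did not overlap between the P60 CTRL groups, 4 of them *Tgif1*, beside 5.93% of all transcripts. The others were *Ski* and *Nrros*, each lower in MIA + CTRL, at adjusted p = 1.00. Rows of 1 gene share reads and are not separate evidence.

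The third question was what repopulation leaves behind at P60. *Tgfbi* had 1704, 744 and 643 TPM in Saline + MG-REP libraries and 139, 127 and 133 TPM in Saline + CTRL libraries. Every repopulated library lay well above every control. The ratio of means was 7.74 and the rise on the log2 scale 2.80 (SE 0.27, adjusted p = 1.83e-08), and it lay between 2.37 and 3.07 under all 15 alternatives. In MIA offspring the values were 145, 168 and 134 TPM after MG-REP and 108, 132 and 125 TPM in CTRL libraries. These groups were narrowly apart, with a log2 difference of 0.29 (SE 0.27, adjusted p = 0.978). The difference between the offspring groups in the MG-REP effect was -2.51 (SE 0.38, adjusted p = 7.09e-05).

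*Smad3* moved the other way. It had 69.2 to 73.8 TPM in Saline + MG-REP libraries against 118 to 162 TPM in Saline + CTRL libraries, below every library of every other group but 1 at E17. The log2 change was -0.92 (SE 0.13, adjusted p = 8.13e-06), and it kept its call under all 15 alternatives. In MIA offspring it had 101 to 113 TPM after MG-REP and 124 to 140 TPM in CTRL libraries, with no overlap and a log2 difference of -0.32 (SE 0.13, unadjusted p = 0.023, adjusted p = 0.623). The difference of the effects was 0.60 (SE 0.18, adjusted p = 0.0369), and it was lost under 11 of 21 alternatives, with adjusted p from 0.0241 to 0.335.

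*Smad7* had 99.6, 155 and 135 TPM in Saline + MG-REP libraries against 233, 218 and 243 TPM in Saline + CTRL libraries. The groups did not overlap, and the log2 change was -0.85 (SE 0.19, adjusted p = 0.00174). Without the male P60 libraries, which leaves only library 1 of Saline + CTRL, the change was -0.86. In MIA offspring *Smad7* had 201, 268 and 196 TPM after MG-REP and 177 to 231 TPM in CTRL libraries, which overlapped (log2 difference 0.09, SE 0.19, adjusted p = 0.979). The difference of the effects was 0.94 (SE 0.27, adjusted p = 0.0268), and it was lost under 7 of 21 alternatives.

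Of the receptors, *Tgfbr1* had 1.37, 2.24 and 2.10 TPM in Saline + MG-REP libraries, about 9.8 to 14.1 reads, against 3.29, 2.36 and 3.99 TPM in Saline + CTRL libraries. These libraries were narrowly apart. The log2 change of -0.53 (SE 0.20) had an adjusted p of 0.0477 and lost its call under 10 of 15 alternatives, with adjusted p up to 0.252. *Tgfbr2* had 2.25, 1.36 and 1.60 TPM against 1.80, 4.02 and 3.65 TPM, a log2 difference of -0.57 (SE 0.22, adjusted p = 0.0545). Library 1, the only Saline + CTRL library with *Xist*, was the low one. Without the male P60 libraries the difference was -0.05, set against that library alone.

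*Tgfb1*, *Nrros*, *Smad2*, *Ski* and the 5 *Tgif1* rows did not pass in either offspring group. *Tgfb1* had 581, 462 and 415 TPM in Saline + MG-REP and 558, 466 and 616 TPM in Saline + CTRL libraries, and the groups overlapped in part (log2 difference -0.17, SE 0.16, adjusted p = 0.477). *Ski* was at 315 to 371 TPM against 410 to 459 TPM, apart but at an adjusted p of 0.096. *Tgif1* NM_009372 was at 75.6 to 88.1 TPM against 55.9 to 61.9 TPM, also apart, at an adjusted p of 0.147.

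In Saline offspring 4 of 14 member transcripts were called, beside 26.7% of all, so the count is near the background. *Tgfbi* was higher, beside 11.9% of all, and *Smad3*, *Smad7* and *Tgfbr1* were lower, beside 14.9%. In MIA offspring none was called, beside 0.555% of all, and 4 had an unadjusted p under 0.05, beside 6.2%. The difference of the effects passed for 3 members, beside 10.5% of all. It was positive for *Smad7* and *Smad3*, beside 4.42%, and negative for *Tgfbi*, beside 6.09%. In Saline offspring the median change of all transcripts was -0.14 on the log2 scale and that of the members -0.06. Of all calls there 44.3% were higher, or 57.5% with a scaling by median ratios, which brought the median of all transcripts to -0.05. Under that scaling *Tgfbr1* had an adjusted p of 0.102, while *Tgfbi*, *Smad3* and *Smad7* kept their direction and call.

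The repopulated groups were also set against each other. In MIA + MG-REP relative to Saline + MG-REP libraries, *Tgfbi* was lower by 2.65 on the log2 scale (adjusted p = 7.21e-08), and *Smad7* (0.78), *Smad3* (0.59) and *Tgfbr1* (0.60) were higher. These are 4 of 14, beside 22% of all transcripts, of which 10.9% were higher and 11% lower, with a median difference of 0.12. Without Saline + MG-REP library 1 the count was 2, since *Smad7* (adjusted p = 0.0582) and *Tgfbr1* (adjusted p = 0.194) no longer passed. These comparisons share libraries with those above, so they are not independent of them.

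**Figure D4:**
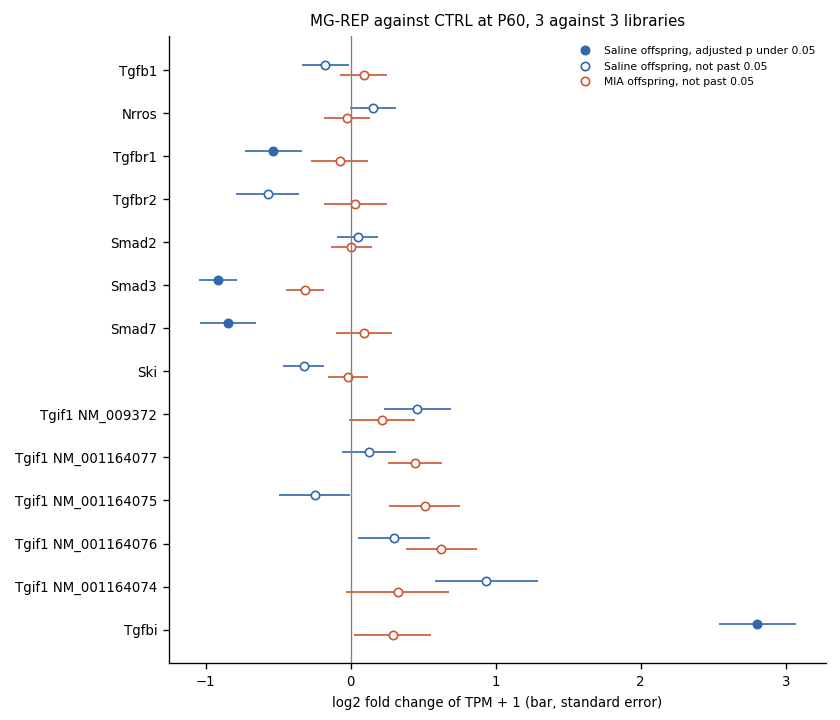
Log2 fold change of TPM + 1 between MG-REP and CTRL libraries at P60 for the 14 member transcripts, in Saline (blue) and MIA (red) offspring, with standard errors; filled points have an adjusted p under 0.05. *Tgfbi* (2.80), *Smad3* (-0.92), *Smad7* (-0.85) and *Tgfbr1* (-0.53) are filled in Saline offspring, and no point is filled in MIA offspring.

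Other cells and sex moved with this comparison, and their part in it was not tested. Of the 6 border macrophage markers, 1 rose and 1 fell in Saline offspring. *Pf4* was at 901, 422 and 408 TPM in the Saline + MG-REP libraries against 122 to 156 TPM in Saline + CTRL. *Cd163*, another marker of the list, was near 0 in both, at 0, 0 and 0.06 TPM against 0.27 to 0.86 TPM, so this low row says little about border macrophages. The others overlapped: *Mrc1* at 158 to 241 TPM against 176 to 212 TPM, *Lyve1* at 22.4 to 40.8 against 31.0 to 65.1, *Cbr2* at 81.3 to 135 against 87.3 to 131, and *F13a1* at 1.48 to 2.47 against 1.69 to 2.51. The 6 monocyte and neutrophil markers summed to 85.7, 4621 and 317 TPM in the Saline + MG-REP libraries against 651 to 809 TPM in Saline + CTRL, and 1 rose and 1 fell. The riser was the monocyte receptor gene *Ccr2*, at 60.6, 64.1 and 49.9 TPM against 18.1 to 19.6 TPM. *S100a8*, an abundant neutrophil gene, was at 15.2, 2754 and 177 TPM against 395 to 473 TPM, and like the remaining 4 markers it was below every Saline + CTRL library in libraries 1 and 3 and lay above them in library 2, except *Plac8*, which in library 2 was within their range. The microglia markers summed to 22570 to 25900 TPM against 29520 to 42940 TPM (exact permutation test, two-sided, p = 0.1, the smallest that 3 against 3 libraries allow), with 4 of 5 fallen. Set beside the 3 *Tgfbi* values of 1704, 744 and 643 TPM, the border macrophage sums were 1320, 687 and 689 TPM, so library 1 was the highest in both. *Pf4* alone made up 901, 422 and 408 TPM of these sums. The log2 change of *Tgfbi* was 2.37 without library 1 and 2.97 without library 2, and 4 member transcripts were called in either case, with *Tgfbr2* in place of *Tgfbr1* in the former. Without the male P60 libraries, which leaves only library 1 of Saline + CTRL, the log2 change was 2.74 for *Tgfbi* and -0.73 for *Smad3*.

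The start regions of *Tgfbi* and *Smad3*, the members with the firmest changes in opposite directions, are shown for the SMAD-binding letters (from 250 bases before the start to 50 after, RefSeq on GRCm38.p6, CAGAC or GTCTG in capitals). The *Tgfbi* region is chr13:56609336-56609635 on the plus strand and the *Smad3* region chr9:63757945-63758244 on the minus strand.
Tgfbi: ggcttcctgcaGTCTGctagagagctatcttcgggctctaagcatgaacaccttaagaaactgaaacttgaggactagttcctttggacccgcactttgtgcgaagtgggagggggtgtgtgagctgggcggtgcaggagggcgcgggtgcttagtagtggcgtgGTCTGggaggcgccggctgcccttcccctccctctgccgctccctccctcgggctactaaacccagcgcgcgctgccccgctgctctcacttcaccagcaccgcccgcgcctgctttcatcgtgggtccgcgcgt
Smad3: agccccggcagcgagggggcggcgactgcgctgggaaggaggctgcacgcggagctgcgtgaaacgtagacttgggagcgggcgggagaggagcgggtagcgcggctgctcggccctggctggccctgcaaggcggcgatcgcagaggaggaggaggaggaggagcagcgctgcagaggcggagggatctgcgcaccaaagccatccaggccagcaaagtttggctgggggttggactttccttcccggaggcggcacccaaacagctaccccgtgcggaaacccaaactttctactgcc
*Tgfbi* had 2 matches, beginning 239 and 85 bases before its start, and *Smad3* had 0. Of the 13 start regions found for 8 member genes, 7 regions of 5 genes held a match, beside 49.6% of all promoters. These are letter matches and show no binding.

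The rest of the pathway was read from a list of 71 further genes, of which 58 had 62 transcripts in the table; the others were not analysed here. From E17 to P7, 6 of the 62 rose, beside 6.76% of all transcripts, and 3 fell, beside 4.03%. *Gdf15*, a divergent TGF-beta family ligand, rose by 3.03 on the log2 scale (SE 0.22, adjusted p = 2.14e-09), from 17.6 to 37.3 TPM at E17 to 138 to 373 TPM at P7. *Bmp2*, a ligand of the BMP branch, rose by 1.53 and the response gene *Klf10* (NM_013692) by 1.02, while *Gdf3*, another ligand of the family, fell by 1.51.

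From P7 to P20, 10 rose, beside 21.6% of all, and 16 fell, beside 29.1%. *Gdf15* rose again, to 623 to 1198 TPM, with no overlap (1.84 on the log2 scale, SE 0.22, adjusted p = 2.30e-07). The integrin gene *Itgb5* rose by 0.80. The response genes *Klf10* and *Cdkn1a* (NM_007669) fell by 1.52 and 1.47, and *Bmp2* fell by 1.28. From P20 to P60 CTRL, 2 rose, beside 4.24% of all, and 8 fell, beside 7.71%. *Gdf15* fell by 3.04 (SE 0.22, adjusted p = 4.95e-09), to 68.6 to 158 TPM, *Ctgf* by 1.41 and *Klf10* by 1.2, while *Lrrc32* rose by 0.79 and *Mmp14* by 0.66. Over the whole span from E17, 13 rose, beside 27.5%, and 19 fell, beside 34.2%. Most of these counts are near the background. Among those without overlap, *Gdf15* (1.83) and the SMAD inhibitor gene *Pmepa1* (1.11) rose, and *Fbn1* (-2.18), *Gdf3* (-2.11) and *Cdkn1a* (-1.97) fell. Between MIA and Saline offspring none of the 62 passed at any age, beside 0.0% of all.

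After MG-REP in Saline offspring 7 of the 62 rose, beside 11.9% of all, and 10 fell, beside 14.9%, so these counts are near the background, and in MIA offspring none was called, beside 0.555%. *Gdf3*, a TGF-beta family ligand, had 20.9 to 24.6 TPM in Saline + MG-REP libraries, 0 to 0.28 TPM in Saline + CTRL, 0.50 to 0.92 TPM in MIA + MG-REP and 0 to 0.62 TPM in MIA + CTRL libraries. Its log2 fold change in Saline offspring was 4.37 (SE 0.20, adjusted p = 2.99e-13), and the difference of the effects was -3.81 (SE 0.28, adjusted p = 5.92e-09). *Cdkn1a* (NM_007669), a cell cycle inhibitor, rose by 2.08 (SE 0.27, adjusted p = 1.76e-06), from 6.73 to 9.49 TPM to 30.9 to 49.8 TPM, and its second row by 1.10. *Lrrc32*, which encodes a carrier of latent TGF-beta, fell by 1.26 (SE 0.30, adjusted p = 0.00285), *Bmp2* by 1.198 (SE 0.26, adjusted p = 0.00126) and *Tsc22d1* by 1.01. The difference of the effects also passed for *Cdkn1a* (-2.07), *Mmp14* (-1.29) and *Junb* (0.98). Of 6 receptors and coreceptors 4 fell and none rose: *Bmpr1a*, *Acvr2a*, *Acvr1b* and *Eng*, the last an endothelial coreceptor. The endothelial markers summed to 265 to 550 TPM in Saline + MG-REP against 708 to 1132 TPM in Saline + CTRL libraries, and the part of this in the receptors' fall was not tested. The median change was -0.64 for the receptors beside -0.14 for all transcripts.

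The homeostatic genes known to need TGF-beta signalling gave the most uniform pattern. Of 12 listed genes, 10 had a row, and from P7 to P20 9 of the 10 rose, beside 21.6% of all transcripts, among them *Tmem119* (log2 fold change 2.54, SE 0.16, adjusted p = 4.57e-12), *Slc2a5* (1.501, SE 0.24) and *P2ry12* (0.99, SE 0.17). After MG-REP in Saline offspring 9 of the 10 fell and none rose, beside 14.9% of all transcripts fallen. *Sall1* fell by 2.48 (SE 0.29, adjusted p = 5.96e-07), *P2ry12* by 2.28 (SE 0.24, adjusted p = 7.22e-08) and *Slc2a5* by 2.25 (SE 0.34, adjusted p = 2.00e-05), and *Olfml3* was at -0.26 and did not pass. In MIA offspring none of the 10 was called, with log2 differences from -0.50 for *Fcrls* to 0.52 for *Olfml3*. The difference of the effects passed for 7 of the 10, each with a positive difference, MIA minus Saline offspring, beside 4.42% of all transcripts. The list median was -1.56 in Saline offspring. These genes are also markers of microglia, so fewer microglia and less of these RNAs per cell cannot be told apart.

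**Figure D5:**
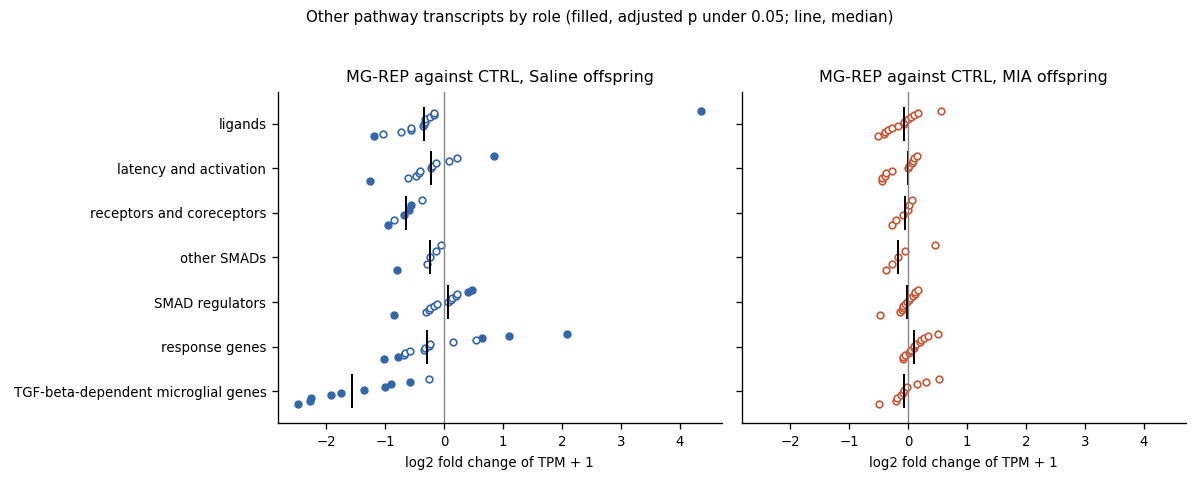
Log2 fold change of TPM + 1 between MG-REP and CTRL libraries at P60 for the other pathway transcripts, a point for each and a line at each list's median, in Saline (left) and MIA (right) offspring; filled points have an adjusted p under 0.05. In Saline offspring the TGF-beta-dependent microglial genes lie left of 0 with a median of -1.56 and *Gdf3* lies at 4.37, and no point is filled in MIA offspring.

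Over the 30 libraries the genes most alike to the members differed from member to member, as a description over libraries that share age and depth. *Smad7* and *Tgfbr1* shared *Gfm2* among their 3 closest (Pearson r = 0.94 and 0.97), and the r between *Smad7* and *Tgfbr1* themselves was 0.92, but -0.04 once group means were removed. *Tgfbi* was closest to *Pqlc3* (0.96), *Gpr65* (0.95) and *Slc2a6* (0.94), *Nrros* to *Litaf* (0.95), and *Smad3* to *Rapgef5* (0.91). *Tgfb1* was closest to *Arhgap30* (0.85).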

How the data were processed

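RNA of CD11B bead-isolated cells was sequenced by the authors in 30 libraries (10 groups of 3, taken from the labels). Per the methods and labels, non-stranded poly(A) libraries were aligned to mm10 with Rsubread and counted with featureCounts. The deposited values are TPM per RefSeq transcript, computed by the authors and already filtered on low counts; how reads shared between transcripts were treated is not given in the sources used here. No counts were used, so the study's count model was replaced by limma 3.58.1 (R 4.3.3) on log2(TPM + 1), with 1 fit of 10 groups, 12 contrasts, a mean-variance trend and Benjamini-Hochberg adjustment over 14225 transcripts at 0.05. The members, lists and tests were chosen with earlier results of these data known. All member rows are described; of other pathway genes, up to 3 rises and 3 falls per contrast among calls without overlap were named, except 1 gene that is not reported here, and any further ones were picked after their values were seen. Alternatives were another pseudocount (0.1), a mean TPM filter of 1 (passed by all 14 member transcripts), 2 other scalings, a replicate block, a fit of only the compared groups, *Xist* as a covariate, no trend, each library left out, and, chosen after seeing the data, the male P60 libraries left out. The fit was tested on simulated data. Same-numbered Saline and MIA libraries had an r over 0.1 in all 3 pairs only at P20 (0.104 to 0.238), where the labels give no shared source, and the block changed no call at P20. Single pairs went higher elsewhere: r was 0.404, 0.656 and 0.000317 at E17, and 0.203, -0.166 and 0.634 in P60 CTRL libraries. For MIA at E17 the block gave 0 calls, and 963 transcripts had an unadjusted limma p under 0.05, against 585 without it. Reads and depth are estimates. The labels do not say whether libraries of a group share a litter, so p-values measure the spread between these libraries.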

Additional observations from a re-analysis of the deposited data

Results flagged for a closer look

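For 3 members the effect of MG-REP differed between the offspring groups by the test of the difference itself (MIA minus Saline offspring, log2 scale, limma). The difference was -2.51 for *Tgfbi*, 0.94 for *Smad7* and 0.60 for *Smad3*. Of these, *Tgfbi* passed under every alternative tried.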

How the results depend on the processing

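The 168 log2 fold changes of the members were recomputed under the alternatives, which gave 2870 values: 2747 stayed on the same side of the threshold, 96 lost and 27 gained a call, and 0 called values changed sign. Of the 14 member transcripts, the number called from E17 to P7 was 2 with median-ratio scaling and 1 in a fit of only the groups compared, against 4. From P20 to P60 CTRL it was 4 with median-ratio scaling, 0 with *Xist* as a covariate and 0 without the male P60 libraries, against 7. For MG-REP in Saline offspring it was 2 without the male P60 libraries, against 4. For the difference of the MG-REP effects it was 1 with median-ratio scaling and 1 without the male P60 libraries, against 3. Fits without the male P60 libraries hold only library 1 of each CTRL group. The cause was not tested.

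Leaving out each library in turn gave 3 to 5 member calls from E17 to P7, 8 to 10 from P7 to P20, 5 to 7 from P20 to P60 CTRL, 7 to 9 from E17 to P60 CTRL and 0 for MIA at every age. For repopulation it gave 3 to 5 in Saline and 0 in MIA offspring, 1 to 3 for the difference and 2 to 5 between the repopulated groups. The difference passed for *Tgfbi* alone (1 call) without Saline + CTRL library 3, MIA + CTRL library 1, Saline + MG-REP library 1 or MIA + MG-REP library 2. The 2 calls between the repopulated groups came without Saline + MG-REP library 1.

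With the replicate number as a block, 7 member transcripts were called for MG-REP in Saline offspring, against 4. The pairs did not deviate together there (r = -0.525 to 0.197), and the labels give no shared source for the number. Whether same-numbered libraries share anything else was not tested.

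Over all transcripts, calls from E17 to P7 were 868 in a fit of only those groups (1535 otherwise), and from P20 to P60 CTRL 365 with *Xist* and 511 without the male P60 libraries (1700). For repopulation in Saline offspring they were 1911 in a fit of only those groups and 1886 without the male P60 libraries (3805), in MIA offspring 30 with *Xist* and 29 without the male libraries (79), and for the difference 638 without them (1496). Left-out libraries gave 2460 to 3729 in Saline offspring, 41 to 71 in MIA offspring, 963 to 1631 for the difference and 1731 to 3141 between the repopulated groups, and Saline + MG-REP library 1 was the one left out for 2460, 963 and 1731. Transcripts with few estimated reads, such as *Tgfbr1*, limit what could be called.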
